A study of Mus musculus with 12 samples.

Results

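Neurotrophic factors are secreted proteins that keep neurons alive and shape their connections, and 9 genes for such factors and their receptors are described here in mouse retina after N-methyl-D-aspartate (NMDA) excitotoxicity. The 9 genes were found by an exact match of their symbols to the gene names of the expression table, which lists 55487 genes, and all 9 were found: the ligands *Bdnf*, *Ntf3*, *Gdnf* and *Fgf2*, the neurotrophin receptors *Ntrk2*, *Ntrk3* and *Ngfr*, and the *Gdnf* receptor components *Gfra1* and *Ret*. Whole retinas were taken from 3 backgrounds, and the eyes of each received either 1 µL of phosphate-buffered saline (PBS) or 1 µL of 40 mM NMDA (40 nmol) by intravitreal injection. The wild type (WT) was C57BL/6J. The sh*Pax6* retinas carried AAV2.7m8 with pU6-sh*Pax6*-GFP, in which the U6 promoter drives a short hairpin against *Pax6* in whichever cells the virus enters. The JNK3 KO retinas came from Jnk3-/- mice, in which *Mapk10*, the gene of this kinase, is disrupted in the germline. The 6 groups held 2 libraries each, 12 in all, each from RNA that pooled over 3 retinas, selected for poly(A) tails and read from both ends. No library from a scrambled hairpin was among the 12, so infection and knockdown cannot be told apart in sh*Pax6*. Mice given the sh*Pax6* vector were 2 months old and, by the paper, wild type. The word background thus stands here for genotype or vector. The labels did not give the age of the other groups or the time from injection to collection.

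Neurotrophins are made as longer precursors and act on 2 kinds of receptor. The Trk receptors are tyrosine kinases, with TrkB (*Ntrk2*) preferring BDNF and TrkC (*Ntrk3*) preferring neurotrophin-3, the product of *Ntf3*. The low-affinity receptor encoded by *Ngfr* binds all neurotrophins and their precursors and has no kinase. GDNF binds GFRα1, a receptor held to the membrane by a lipid anchor, and the complex activates the RET kinase. FGF2 is a heparin-binding growth factor made in the retina by Müller glia and photoreceptors, and it is widely known for rising in injured retina. Retinal ganglion cells (RGCs), the neurons that the paper reports as lost after NMDA, carry TrkB and RET and take up BDNF from their brain targets.

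Values are FPKM, fragments scaled by transcript length and by the number of mapped fragments, so levels can be compared between genes. Differences are on the log2(FPKM + 0.1) scale from limma, with Benjamini-Hochberg adjusted p over the 16471 genes whose mean exceeded 1 FPKM in at least 1 group, and a gene was called at an adjusted p under 0.05. Of the 9 genes 8 were tested. *Gdnf* did not reach 1 FPKM in any group mean, and *Ntf3* passed the filter only through sh*Pax6* NMDA. Where groups are said below not to overlap, 2 libraries are set against 2, and the share of all genes that separate so was not counted. The paper refers to its RNA sequencing replicates as biological. The labels do not say that the 2 libraries of a group came from separate animals. The p-values thus measure the spread between these libraries, which may be technical.

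The WT NMDA libraries stood apart. Their FPKM summed to 805627 and 820180, against 541210 to 576922 in the other 10, and the difference from WT PBS fell with transcript length, from a median of 1.03 (log2) in genes under 1 kb to -1.17 in genes over 4 kb. The same medians ran from 0.18 to -0.07 in sh*Pax6* and from -0.11 to 0.16 in JNK3 KO. The WT NMDA result of each of the 8 genes tested is therefore also given after a correction that removes the trend with length from every library. Under it 27.3% of genes were called higher and 20.1% lower in WT NMDA. No corrected value is given for *Gdnf* or for single transcripts. *Pax6* measured 173 and 177 FPKM in WT PBS and 94.6 and 92.8 in sh*Pax6* PBS, but it also measured 55.4 and 53.8 in WT NMDA. *Mapk10* measured 42.8 and 50.7 FPKM in WT PBS and 9.47 and 8.75 in JNK3 KO PBS, and it measured 8.98 and 6.00 in WT NMDA. The retina was recognised by its rod markers, whose 8 genes summed to 20623 to 35621 FPKM. The 12 RGC markers summed to between 605 and 628 FPKM in WT PBS, 326 and 345 in WT NMDA, 185 and 186 in sh*Pax6* with PBS, 51.0 and 56.3 in sh*Pax6* with NMDA, 574 and 617 in JNK3 KO PBS, and 147 in both JNK3 KO NMDA libraries, and none of them was at 0 in any group. In bulk retina, fewer cells of a type and less RNA per cell cannot be told apart.

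In WT retinas NMDA changed 6 of the 8 genes tested: *Bdnf*, *Ntrk3*, *Gfra1*, *Ret* and *Fgf2* fell and *Ntf3* rose. Over all genes 59.8% were called in this comparison, 26.0% higher and 33.8% lower. With the length correction the balance turned to 3 of the 8 higher (*Ntrk2*, *Ngfr* and *Fgf2*) and 1 lower (*Ret*). In sh*Pax6* retinas NMDA changed 3 genes, with *Ret* and *Gfra1* lower and *Fgf2* higher, against 30.2% of all genes (19.1% higher and 11.0% lower, or 12.6% and 18.4% after the length correction). In JNK3 KO retinas *Fgf2* and *Ngfr* rose and none of the 8 passed the test downwards, against 10.4% of all genes (4.33% higher and 6.10% lower). After the length correction 1 of the 8 was higher there (*Ngfr*) and 1 lower (*Ret*), against 3.78% and 4.6% of all genes. Before NMDA, sh*Pax6* retinas differed from WT in 5 genes (*Ntrk2*, *Ngfr*, *Gfra1* and *Ret* lower, *Fgf2* higher), against 16.5% of all genes (5.36% higher and 11.2% lower, or 9.80% and 7.82% after the correction). JNK3 KO PBS differed from WT PBS in 0 of the 8 by limma, where 1.51% of all genes were called; 1 of them, *Ngfr*, was under 0.05 before adjustment (log2 difference -0.33, SE 0.11). By an unadjusted p under 0.05 and a log2 difference above 1 in size, which are 2 of the criteria of the study (its limit on variance-mean ratios was not applied), 36.2% of all genes passed in WT, 16.1% in sh*Pax6*, 4.67% in JNK3 KO, 6.79% between sh*Pax6* PBS and WT PBS, 34.6% for the response in WT less that in sh*Pax6* and 37.7% for WT less JNK3 KO. The median difference over the 8 genes was -0.71 in WT (all genes -0.09; 0.34 over the 8 after the length correction), -0.12 in sh*Pax6* (0.10) and 0.13 in JNK3 KO (-0.01).

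**Figure D1:**
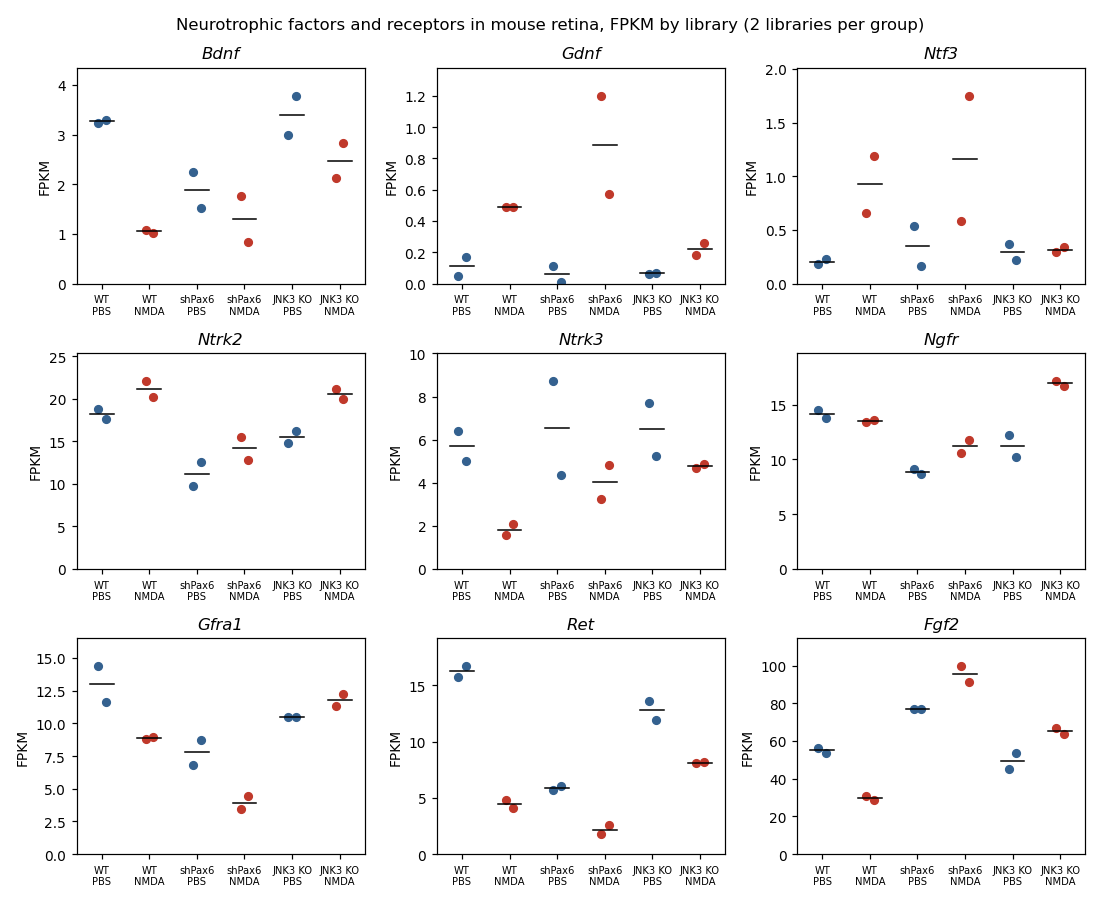
FPKM of the 9 genes in each library, with 1 panel per gene, groups along the horizontal axis, points for the 2 libraries of a group (blue PBS, red NMDA) and black lines for their mean. *Ret* is at 15.8 and 16.7 in WT PBS and at 1.79 and 2.58 in sh*Pax6* NMDA, whereas *Fgf2* is at its lowest in WT NMDA (30.7 and 29.0) and its highest in sh*Pax6* NMDA (99.6 and 91.5).

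*Bdnf* (brain-derived neurotrophic factor, ENSMUSG00000048482, GRCm38 chr2:109674700-109727007, plus strand) was a low-abundance transcript. It measured 3.24 and 3.30 FPKM in WT PBS and 1.08 and 1.02 in WT NMDA. It measured 2.24 and 1.52 in sh*Pax6* with PBS, 1.76 and 0.84 in sh*Pax6* with NMDA, 3.00 and 3.78 in JNK3 KO with PBS, and 2.12 and 2.83 in JNK3 KO NMDA. The WT groups did not overlap, while the sh*Pax6* groups did, and the JNK3 KO NMDA libraries lay below both JNK3 KO PBS libraries. *Bdnf* fell 2.93-fold after NMDA in WT (log2 difference -1.55, SE 0.35, adjusted p = 0.0041). The difference after the length correction was -0.72 (adjusted p = 0.123), so the call rests on how length was treated. The differences were -0.56 (SE 0.35, adjusted p = 0.269) in sh*Pax6* and -0.44 (adjusted p = 0.509) in JNK3 KO.

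*Bdnf* has a series of alternative first exons that all join the same coding exon, and the table lists 11 of its transcripts. Most *Bdnf* in WT PBS was assigned to Bdnf-205, at 2.13 and 2.30 FPKM, which measured 0.15 and 0.16 in WT NMDA (transcript log2 difference -3.18, SE 0.97, adjusted p = 0.0359, where 35.2% of 49940 transcripts were called). In WT NMDA most of the signal was assigned to Bdnf-211, at 0.94 and 0.86 FPKM. Bdnf-211 was listed at 0 in both WT PBS libraries and in all others except sh*Pax6* NMDA library 1 (0.30). The 2 transcripts encode proteins of the same length, 249 residues. An antisense gene, Gm45346, shares 896 exon bases with *Bdnf* and measured no more than 0.57 FPKM; whether reads were counted by strand was not stated.

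*Ntf3* (neurotrophin-3, ENSMUSG00000049107, chr6:126101412-126166910, minus strand) was near the limit of what these libraries hold. It measured 0.18 and 0.23 FPKM in WT PBS and 0.66 and 1.19 in WT NMDA. In sh*Pax6* it measured 0.54 and 0.16 with PBS and 0.58 and 1.75 with NMDA, and in JNK3 KO 0.37 and 0.22 with PBS and 0.29 and 0.34 with NMDA. WT NMDA lay above all 6 PBS libraries, the highest of which reached 0.54. *Ntf3* rose in WT (log2 difference 1.70, SE 0.65, adjusted p = 0.048), a call lost under the length correction (1.12, adjusted p = 0.193) and whichever 1 of the 4 WT libraries was left out. The differences in sh*Pax6* (1.46, adjusted p = 0.127) and JNK3 KO (0.10, adjusted p = 0.972) did not pass the test. Its signal was almost all in Ntf3-203.

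*Gdnf* (glial cell line-derived neurotrophic factor, ENSMUSG00000022144, chr15:7810846-7837575, plus strand) was the least abundant of the 9 in PBS. It measured 0.05 and 0.17 FPKM in WT PBS, 0.11 and 0.01 in sh*Pax6* PBS and 0.06 and 0.07 in JNK3 KO PBS. With NMDA it measured 0.49 in both WT libraries, 1.20 and 0.57 in sh*Pax6* and 0.18 and 0.26 in JNK3 KO. In each background both NMDA libraries lay above both PBS libraries. Without the filter on low values, limma gave log2 differences of 1.55 (SE 0.53, adjusted p = 0.0495) in WT, 2.62 (SE 0.53, adjusted p = 0.0104) in sh*Pax6* and 0.94 (adjusted p = 0.437) in JNK3 KO. At these levels the pseudocount of 0.1 is as large as some of the values, and the number of reads behind them is unknown.

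*Ntrk2* (ENSMUSG00000055254, chr13:58806569-59133970, plus strand) was the most abundant of the 5 receptor genes. It measured 18.8 and 17.7 FPKM in WT PBS and 22.1 and 20.2 in WT NMDA. In sh*Pax6* it measured 9.77 and 12.6 with PBS and 15.6 and 12.8 with NMDA, and in JNK3 KO 14.8 and 16.2 with PBS and 21.2 and 20.0 with NMDA. Both NMDA libraries lay above both PBS libraries in every background, but no difference passed the test (0.21, 0.34 and 0.41, adjusted p = 0.221, 0.0992 and 0.110). After the length correction the WT difference was 1.20 (adjusted p = 9.92e-05). The correction gives each gene 1 length for all libraries, 4493 bases for *Ntrk2*. In WT NMDA its transcript Ntrk2-204, of 3049 bases, held 15.8 and 14.0 FPKM, so that length may be wrong for these libraries. *Ntrk2* was 1.64-fold lower in sh*Pax6* PBS than in WT PBS (log2 difference -0.71, SE 0.14, adjusted p = 0.00929), and this call was lost without sh*Pax6* PBS library 1 (-0.53, adjusted p = 0.052) or without either WT PBS library (-0.67 and -0.75, adjusted p = 0.0746 and 0.0528).

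The gene total joined transcripts of opposite behaviour. *Ntrk2* makes a full-length receptor with the tyrosine kinase and shorter receptors that stop soon after the membrane and cannot signal through a kinase, and *Ntrk3* and *Ret* also end in more than 1 way. The point where the coding sequences part is shown for the main pair of each gene, since transcripts are grouped below by the form they encode. Lower-case letters are the last 21 coding bases that the pair shares, and capitals are the first bases, up to 60, after the pair parts. Ntrk2-207 has the same coding sequence as Ntrk2-201, and Ntrk2-202 the same as Ntrk2-204. The bases were taken from the GENCODE M21 transcript sequences and placed on GRCm38 by the annotated exons. All are written 5′ to 3′ on the gene's own strand.
Ntrk2-201 (full length, 821 codons, capitals at chr13:58985803-58985862, plus strand): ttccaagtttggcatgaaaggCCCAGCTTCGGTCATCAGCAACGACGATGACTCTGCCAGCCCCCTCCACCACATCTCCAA
Ntrk2-204 (truncated, 476 codons, capitals at chr13:58932024-58932060, plus strand): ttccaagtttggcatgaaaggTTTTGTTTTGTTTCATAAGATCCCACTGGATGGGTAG
Ntrk3-201 (full length, 825 codons, capitals at chr7:78260355-78260414, minus strand): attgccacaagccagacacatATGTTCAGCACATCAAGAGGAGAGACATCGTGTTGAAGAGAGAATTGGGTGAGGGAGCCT
Ntrk3-202 (truncated, 612 codons, capitals at chr7:78304367-78304426, minus strand): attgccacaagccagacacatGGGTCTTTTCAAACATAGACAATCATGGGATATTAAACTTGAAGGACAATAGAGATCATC
Ret-201 (long tail, 1115 codons, capitals at chr6:118153950-118154009, minus strand): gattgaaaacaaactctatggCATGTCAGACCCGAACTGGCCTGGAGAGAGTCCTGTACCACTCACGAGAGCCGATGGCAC
Ret-202 (short tail, 1073 codons, capitals at chr6:118155256-118155286, minus strand): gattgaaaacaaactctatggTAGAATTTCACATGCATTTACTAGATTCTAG

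After the codon that spans the junction, Ntrk2-204 has 11 codons that Ntrk2-201 lacks, printed whole with the stop codon, where Ntrk2-201 has 356 that include the kinase. Ntrk3-202 has 83 codons of its own where Ntrk3-201 has 296. The tails of *Ret* are 51 and 9 codons long and both forms hold the kinase. In the text below, truncated *Ntrk2* sums 5 transcripts that stop before the kinase and full-length *Ntrk2* sums the 2 with 821 codons.

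Full-length *Ntrk2* had lower summed values with NMDA than with PBS in each background, by most in WT. It summed to 5.87 and 6.06 FPKM in WT PBS and 0.88 and 1.08 in WT NMDA, which is 31.3% and 34.3% of the gene against 4.0% and 5.3%. In sh*Pax6* it summed to 4.39 and 2.88 with PBS (44.9% and 22.9%) and to 0.62 and 1.79 with NMDA (4.0% and 14.0%). In JNK3 KO it summed to 5.32 and 4.87 with PBS (35.9% and 30.1%) and to 4.76 and 4.01 with NMDA (22.5% and 20.1%). The truncated forms went the other way, from 12.9 and 11.6 FPKM to 21.2 and 18.5 in WT, from 5.39 and 9.70 to 15.0 and 10.8 in sh*Pax6*, and from 9.48 and 11.2 to 16.4 and 15.5 in JNK3 KO. PBS and NMDA libraries did not overlap in either class in any of the 3 backgrounds. No test was run on these sums.

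At the level of single transcripts, Ntrk2-201 fell in WT (log2 difference -2.04, SE 0.34, adjusted p = 0.00232) and in sh*Pax6* (-1.74, SE 0.34, adjusted p = 0.0194, where 8.34% of transcripts were called). Its response differed between WT and JNK3 KO (-1.68, SE 0.48, adjusted p = 0.0364, where 25.7% were called). Length moved with these values in WT. Ntrk2-202 and Ntrk2-204 carry the same 476-codon coding sequence but are 6846 and 3049 bases long, and in WT the longer fell (-1.10, SE 0.32, adjusted p = 0.0312) while the shorter rose (1.39, SE 0.26, adjusted p = 0.00403). Ntrk2-201 is 8744 bases long. In sh*Pax6* neither of the pair was called (0.65 and -0.30, adjusted p = 0.308 and 0.538). No length correction was run on transcripts, and the part of length in these values was not tested. A share of short-read fragments between overlapping transcripts is an estimate, whose error was not analysed here.

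**Figure D2:**
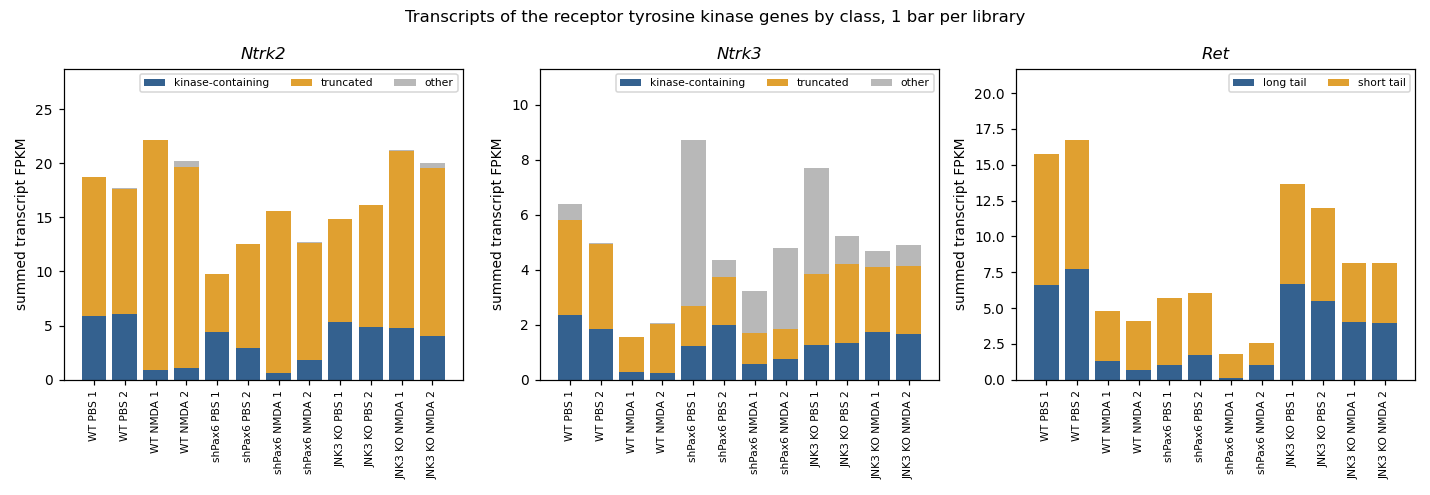
Summed transcript FPKM of *Ntrk2*, *Ntrk3* and *Ret* in each of the 12 libraries, stacked by class (blue, full-length with kinase or long tail; orange, truncated or short tail; grey, transcripts of neither class). The blue part of *Ntrk2* is at 0.88 and 1.08 in WT NMDA against 5.87 and 6.06 in WT PBS, and the grey part of *Ntrk3* reaches 6.04 in sh*Pax6* PBS library 1.

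*Ntrk3* (ENSMUSG00000059146, chr7:78175959-78738012, minus strand) measured 6.41 and 4.99 FPKM in WT PBS and 1.57 and 2.07 in WT NMDA. It measured 8.72 and 4.35 in sh*Pax6* with PBS, 3.24 and 4.80 in sh*Pax6* with NMDA, 7.71 and 5.23 in JNK3 KO with PBS and 4.68 and 4.89 in JNK3 KO with NMDA. WT NMDA lay below all other libraries. The fall in WT was 3.02-fold (log2 difference -1.60, SE 0.35, adjusted p = 0.00329), and after the length correction it was -0.20 (adjusted p = 0.671). The differences were -0.63 (adjusted p = 0.210) in sh*Pax6* and -0.40 (adjusted p = 0.551) in JNK3 KO.

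Much of the spread of *Ntrk3* between libraries of a group lay in short transcripts that do not code for a receptor. Ntrk3-216, of 224 bases, held 3.65 FPKM in sh*Pax6* PBS library 1 and 0 in library 2, and 3.41 and 1.03 in JNK3 KO PBS. Ntrk3-211, of 395 bases, held 2.72 FPKM in sh*Pax6* NMDA library 2 and was listed at 0 in all others. Over the 4 transcripts that code for more than 400 residues, *Ntrk3* summed to 5.80 and 4.95 in WT PBS, 1.54 and 2.03 in WT NMDA, 2.67 and 3.72 in sh*Pax6* with PBS, 1.69 and 1.86 in sh*Pax6* with NMDA, 3.85 and 4.20 in JNK3 KO with PBS and 4.09 and 4.12 in JNK3 KO with NMDA. On that sum the libraries of sh*Pax6* PBS lay below those of WT PBS, the reverse of the order of the gene means. With every gene summed over its protein-coding transcripts alone, an alternative chosen after these values were seen, *Ntrk3* fell in sh*Pax6* after NMDA (-0.80, adjusted p = 0.0202), was lower in sh*Pax6* PBS than in WT PBS (-0.75, adjusted p = 0.0399) and gave 0.03 (adjusted p = 0.955) in JNK3 KO. Full-length Ntrk3-201 fell in WT (-2.52, SE 0.44, adjusted p = 0.00278) and so did truncated Ntrk3-202 (-1.08, SE 0.31, adjusted p = 0.030), and these are 19703 and 3977 bases long.

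*Ngfr* (ENSMUSG00000000120, chr11:95568818-95587735, minus strand) has 1 transcript in the table, of 3446 bases. It measured 14.5 and 13.7 FPKM in WT PBS and 13.5 and 13.6 in WT NMDA. In sh*Pax6* it measured 9.11 and 8.63 with PBS and 10.6 and 11.8 with NMDA, and in JNK3 KO 12.2 and 10.3 with PBS and 17.2 and 16.7 with NMDA. JNK3 KO NMDA lay above all other libraries and sh*Pax6* PBS below them. *Ngfr* rose 1.51-fold in JNK3 KO (log2 difference 0.59, SE 0.11, adjusted p = 0.0118), a call lost when any of 3 of the 4 JNK3 KO libraries was left out, where the value stayed between 0.47 and 0.61. The difference was 0.33 (adjusted p = 0.0533) in sh*Pax6* and -0.06 (adjusted p = 0.675) in WT. In WT it became 0.58 (adjusted p = 0.00294) after the length correction and -0.63 (adjusted p = 0.000764) when each library was scaled to the same summed FPKM. *Ngfr* was 1.59-fold lower in sh*Pax6* PBS than in WT PBS (-0.66, SE 0.11, adjusted p = 0.00417).

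The *Gdnf* receptor components fell together in WT and sh*Pax6*. *Gfra1* (ENSMUSG00000025089, chr19:58235604-58455909, minus strand) measured 14.4 and 11.7 FPKM in WT PBS and 8.82 and 8.99 in WT NMDA. It measured 6.83 and 8.76 in sh*Pax6* with PBS and 3.47 and 4.42 in sh*Pax6* with NMDA. In JNK3 KO it measured 10.5 in both PBS libraries and 11.3 and 12.2 with NMDA. The sh*Pax6* NMDA libraries were the lowest of the 12, and in JNK3 KO the NMDA libraries were above the PBS libraries. *Gfra1* fell 1.95-fold in sh*Pax6* (log2 difference -0.96, SE 0.17, adjusted p = 0.00268) and 1.45-fold in WT (-0.53, SE 0.17, adjusted p = 0.0223), while the value in JNK3 KO was 0.16 (adjusted p = 0.638). The WT value turned to 0.33 (adjusted p = 0.145) after the length correction, and its call was lost without WT NMDA library 1 or 2 or WT PBS library 1 (-0.38 to -0.55, adjusted p = 0.0682 to 0.158). *Gfra1* was 1.66-fold lower in sh*Pax6* PBS than in WT PBS (-0.73, SE 0.17, adjusted p = 0.0186), which was lost without WT PBS library 1 (-0.58, adjusted p = 0.140) or sh*Pax6* PBS library 1 (-0.56, adjusted p = 0.104).

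*Ret* (ENSMUSG00000030110, chr6:118151745-118197718, minus strand) separated all 6 groups. It measured 15.8 and 16.7 FPKM in WT PBS, 13.64 and 11.96 in JNK3 KO with PBS, 8.12 and 8.16 in JNK3 KO with NMDA, 5.68 and 6.02 in sh*Pax6* PBS, 4.80 and 4.11 in WT NMDA, and 1.79 and 2.58 in sh*Pax6* NMDA. No group overlapped with the next, but JNK3 KO PBS did not differ from WT PBS by limma (-0.34, adjusted p = 0.424). *Ret* fell 3.6-fold after NMDA in WT (log2 difference -1.85, SE 0.18, adjusted p = 1.9e-05) and 2.64-fold in sh*Pax6* (-1.40, SE 0.18, adjusted p = 0.000438). In JNK3 KO the difference was -0.64 (SE 0.18, adjusted p = 0.0532), just short of the threshold and past it under 5 of the alternatives, the length correction among them. The fall in WT was kept after the length correction (-0.76, adjusted p = 0.00841). Before NMDA, *Ret* was 2.75-fold lower in sh*Pax6* than in WT (-1.46, SE 0.18, adjusted p = 0.000769), and this call and the fall in WT were kept under each alternative run.

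Both tails of *Ret* took part. The long-tail Ret-201 measured 6.61 and 7.70 FPKM in WT PBS and 1.33 and 0.67 in WT NMDA (-2.79, SE 0.66, adjusted p = 0.0127). The short-tail Ret-202 measured 9.17 and 9.0 in WT PBS and 3.48 and 3.44 in WT NMDA (-1.37, SE 0.18, adjusted p = 0.000608), and it also fell in sh*Pax6*, from 4.63 and 4.3 to 1.64 and 1.58 (-1.42, SE 0.18, adjusted p = 0.00268). Ret-202 was lower in sh*Pax6* PBS than in WT PBS (-1.01, SE 0.18, adjusted p = 0.0262, where 2.73% of transcripts were called). The long tail made up 41.9% and 46.1% of the gene in WT PBS, 18.5% and 28.6% in sh*Pax6* PBS and between 46.1% and 49.9% in the 4 JNK3 KO libraries. With NMDA it made up 27.7% and 16.3% in WT and 8.4% and 38.8% in sh*Pax6*, whose libraries lay farther apart than those of each other group. RGC markers were called lower in the 3 comparisons in which *Ret* was: 10 of 12 after NMDA in WT (median -2.16; 33.8% of all genes), 9 in sh*Pax6* (-2.55; 11.0%) and 7 in sh*Pax6* PBS against WT PBS (-1.55; 11.2%). They were also lower in JNK3 KO after NMDA, where 8 of 12 were called (median -1.97, against 6.10% of all genes). There *Ret* was just short of a call by limma (-0.64, adjusted p = 0.0532), with both NMDA libraries below both PBS libraries. The 10 amacrine markers summed to 546 to 560 FPKM in WT PBS, 244 to 252 in WT NMDA, 362 to 371 in sh*Pax6* with PBS and 102 to 105 in sh*Pax6* with NMDA, with none at 0. They also summed lower with NMDA in JNK3 KO, at 538 to 541 FPKM with PBS and 261 to 264 with NMDA. In that background *Ret* was lower but just short of a call, and the value of *Gfra1* was 0.16 (adjusted p = 0.638 by limma). The part of these cells in the levels of *Ret* and *Gfra1* was not tested.

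**Figure D3:**
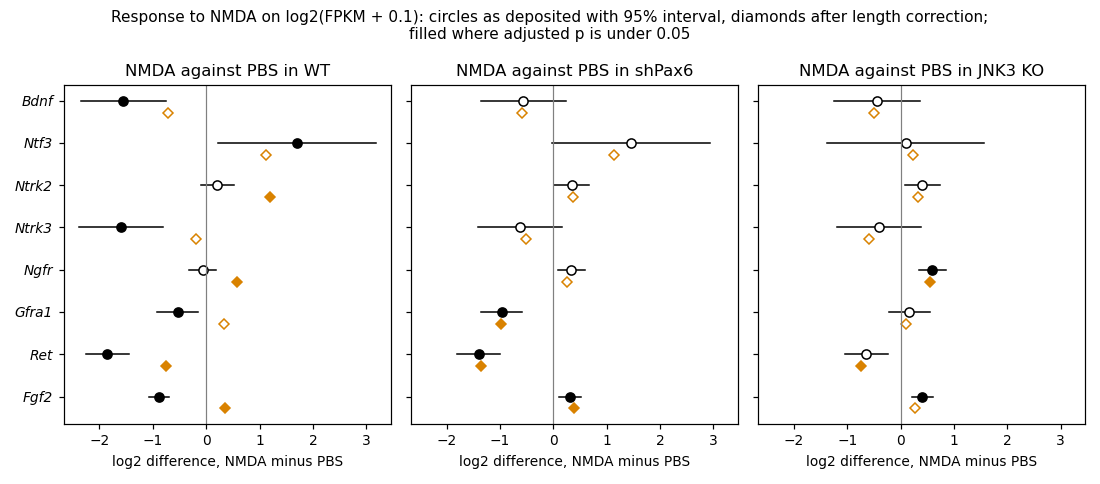
Log2 difference of NMDA minus PBS on log2(FPKM + 0.1) for the 8 genes tested, with 1 panel per background, black circles with 95% intervals from the deposited values and orange diamonds after the length correction, filled where adjusted p is under 0.05. In WT *Fgf2* moves from -0.88 to 0.35 with the correction and *Ret* from -1.85 to -0.76, whereas *Ret* moves from -1.40 to -1.36 in sh*Pax6*.

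*Fgf2* (ENSMUSG00000037225, chr3:37348346-37410108, plus strand) was the most abundant of the 9. It measured 56.5 and 53.8 FPKM in WT PBS and 30.7 and 29.0 in WT NMDA. In sh*Pax6* it measured 76.7 and 77.2 with PBS and 99.6 and 91.5 with NMDA, and in JNK3 KO 45.0 and 53.7 with PBS and 67.0 and 63.8 with NMDA. NMDA libraries were thus the higher in sh*Pax6* and JNK3 KO and the lower in WT. *Fgf2* rose 1.24-fold in sh*Pax6* (log2 difference 0.31, SE 0.09, adjusted p = 0.0266) and 1.33-fold in JNK3 KO (0.41, SE 0.09, adjusted p = 0.0195), and fell 1.85-fold in WT (-0.88, SE 0.09, adjusted p = 2.31e-05). The fall in WT turned into a rise after the length correction (0.35, adjusted p = 0.00577), so its direction depends on the treatment of length. In sh*Pax6* the call was lost without NMDA library 1 or either PBS library (0.25 to 0.31, adjusted p = 0.0775 to 0.126) and in JNK3 KO without either NMDA library or PBS library 1 (0.28 to 0.45, adjusted p = 0.0932 to 0.133). The sh*Pax6* call was also lost with 75th-percentile scaling (0.19, adjusted p = 0.149), quantile normalization (0.17, adjusted p = 0.219) and TPM (0.26, adjusted p = 0.0743), and the JNK3 KO call with the length correction (0.27, adjusted p = 0.0749). With the spread of the compared groups alone or no intensity trend, neither was called (adjusted p = 0.0544 to 0.107). *Fgf2* was 1.39-fold higher in sh*Pax6* PBS than in WT PBS (0.48, SE 0.09, adjusted p = 0.00632), a call lost without WT PBS library 2 (0.45, adjusted p = 0.0589).

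Most *Fgf2* was in Fgf2-208, a transcript of 5973 bases of which 462 are coding. It measured 52.2 and 48.7 FPKM in WT PBS, 30.6 and 28.4 in WT NMDA, 69.7 and 71.6 in sh*Pax6* with PBS, 91.3 and 86.3 in sh*Pax6* with NMDA, 43.6 and 47.9 in JNK3 KO with PBS and 62.9 and 62.0 in JNK3 KO with NMDA. Its differences had the signs of the gene's: -0.77 in WT (adjusted p = 0.000116), 0.33 in sh*Pax6* (adjusted p = 0.0327) and 0.45 in JNK3 KO (adjusted p = 0.0327, where 1.31% of transcripts were called). The 10 Müller glia markers summed to 1207 to 1243 FPKM in WT PBS, 1910 to 1919 in WT NMDA, 1979 to 2080 in sh*Pax6* PBS, 3167 to 3415 in sh*Pax6* NMDA, 1332 to 1340 in JNK3 KO with PBS and 1548 to 1581 in JNK3 KO with NMDA. The sum rests on a few abundant genes: in WT 3 of the 10 were called higher and 6 lower (median -0.76), against 4 and 3 in sh*Pax6* (0.12) and 4 and 3 in JNK3 KO (0.30). After the length correction the WT count was 2 higher and 4 lower (median -0.09), where 27.3% and 20.1% of all genes were called. Before it, the shares of all genes higher and lower were 26.0% and 33.8% in WT. They were 19.1% and 11.0% in sh*Pax6* and 4.33% and 6.10% in JNK3 KO. The 9 gliosis genes summed to 1345 to 1386 FPKM in WT PBS and 1472 to 1547 in WT NMDA. After NMDA 5 of the 9 were called higher and 4 lower in WT, 9 and 0 in sh*Pax6*, and 1 and 4 in JNK3 KO, against the same shares of all genes. The WT count after the length correction was 4 higher and 4 lower. In sh*Pax6* the gliosis sum was 921 to 949 with PBS and 3002 to 3034 with NMDA, and in JNK3 KO it was 1160 to 1197 with PBS and 438 to 441 with NMDA, so that it was higher with NMDA in one and lower in the other of the backgrounds in which *Fgf2* rose. None of these markers was at 0 in a group, and their part in the level of *Fgf2* was not tested.

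The *Fgf2* locus also holds genes on its opposite strand, which were looked at after their values were seen. *Nudt6*, a Nudix hydrolase gene, shares 640 exon bases with *Fgf2*, and Fgf2os is an antisense RNA gene that shares none. *Nudt6* measured 16.6 and 18.1 FPKM in WT PBS and 59.8 and 58.8 in WT NMDA (log2 difference 1.77, SE 0.20, adjusted p = 5.38e-05), and 16.6 and 16.4 against 18.2 and 19.5 in JNK3 KO (0.19, adjusted p = 0.642). It also rose in sh*Pax6*, from 18.1 and 11.8 to 29.0 and 20.7 (0.74, adjusted p = 0.0217). Fgf2os measured 9.57 and 9.24 in WT PBS, 26.3 and 26.7 in sh*Pax6* with PBS and 72.4 and 75.2 in sh*Pax6* with NMDA. It rose after NMDA in sh*Pax6* (1.47, SE 0.10, adjusted p = 1.07e-05) and in WT, to 18.1 and 15.5 (0.83, SE 0.10, adjusted p = 8.31e-05), and was higher in sh*Pax6* PBS than in WT PBS (1.48, SE 0.10, adjusted p = 3.64e-05), and it measured between 8.18 and 9.66 in the JNK3 KO libraries. After the length correction the differences of *Nudt6* in WT and of Fgf2os in sh*Pax6* were 0.94 (adjusted p = 0.00261) and 1.18 (adjusted p = 4.52e-05), that of Fgf2os in WT was 0.32 (adjusted p = 0.0292), and that of *Nudt6* in sh*Pax6* was 0.29 (adjusted p = 0.279). Without strand, fragments from the 640 shared bases cannot be assigned to *Fgf2* or *Nudt6*.

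**Figure D4:**
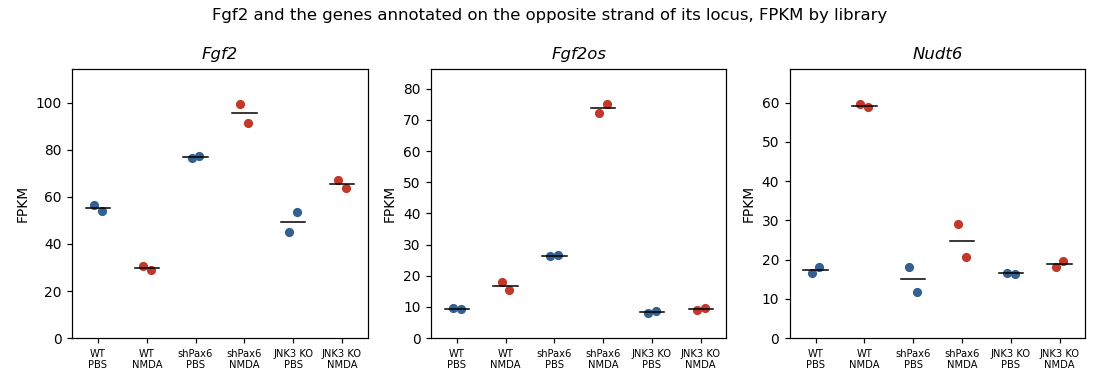
FPKM of *Fgf2*, Fgf2os and *Nudt6* in each library, with points for the 2 libraries of a group (blue PBS, red NMDA) and black lines for their mean. The sh*Pax6* NMDA libraries are the highest in *Fgf2* (99.6 and 91.5) and Fgf2os (72.4 and 75.2), and WT NMDA is the highest in *Nudt6* (59.8 and 58.8).

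The response to NMDA was then compared between backgrounds, as the NMDA minus PBS difference of one less that of the other. The comparisons that involve WT rest on the WT NMDA libraries. For WT less sh*Pax6*, *Fgf2* alone was called (-1.20, SE 0.12, adjusted p = 7.4e-05), against 49.7% of all genes (18.3% higher and 31.4% lower). For WT less JNK3 KO, 4 of 8 were called, against 51.4% of all genes (23.5% higher and 27.9% lower): *Fgf2* (-1.30, SE 0.12, adjusted p = 3.01e-05), *Ret* (-1.20, SE 0.25, adjusted p = 0.00328), *Ngfr* (-0.65, SE 0.16, adjusted p = 0.00724) and *Gfra1* (-0.69, SE 0.24, adjusted p = 0.0368). After the length correction none of these 5 was called, with values of -0.04 for *Fgf2* against sh*Pax6* and 0.08, -0.02, 0.01 and 0.22 for *Fgf2*, *Ret*, *Ngfr* and *Gfra1* against JNK3 KO. Conversely *Gfra1* then differed between WT and sh*Pax6* (1.31, adjusted p = 0.00265), as did *Ntrk2* (0.84, adjusted p = 0.00796). *Ntrk2* then also differed between WT and JNK3 KO (0.88, adjusted p = 0.00682), where its value before the correction was -0.19. Both corrected values of *Ntrk2* rest on the same length for all libraries. For sh*Pax6* less JNK3 KO, which does not use the WT libraries, *Gfra1* was called (-1.12, SE 0.24, adjusted p = 0.0132), against 17.7% of all genes (12.1% higher and 5.62% lower), and the value for *Ret* was -0.76 (SE 0.25, adjusted p = 0.0702). The *Gfra1* call was lost without JNK3 KO NMDA library 2 (-1.07, adjusted p = 0.0599).

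The other genes of these pathways were counted in lists, to be read against the shares of all genes called. These shares, higher and lower, were 26.0% and 33.8% in WT after NMDA, and 27.3% and 20.1% there after the length correction. They were 19.1% and 11.0% in sh*Pax6*, 4.33% and 6.10% in JNK3 KO, and 5.36% and 11.2% in sh*Pax6* PBS against WT PBS. Of 11 tested ligands, receptors and partners of the neurotrophins, 2 were called higher and 7 lower in WT after NMDA (median -1.07), 0 and 4 in sh*Pax6*, 0 and 2 in JNK3 KO, and 0 and 4 in sh*Pax6* PBS against WT PBS. *Lingo1*, a co-receptor of the *Ngfr* product, measured 14.8 and 17.6 FPKM in WT PBS and fell in all 3 backgrounds (-1.29, -1.63 and -0.66, adjusted p = 0.000116, 0.000113 and 0.0364). The sortilin-family receptors *Sorcs1* (-2.25, adjusted p = 1.48e-06), *Sorl1* (-1.98, adjusted p = 2.72e-06) and *Sorcs3* (-1.86, adjusted p = 0.00366) fell in WT, and after the length correction *Sorcs1* (-1.01, adjusted p = 0.000352) and *Lingo1* (-0.91, adjusted p = 0.00169) kept their calls whereas *Sorl1* (-0.26, adjusted p = 0.127) and *Sorcs3* (-0.79, adjusted p = 0.149) did not. Under that correction the list stood at 3 higher and 2 lower in WT.

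Tested next were 5 other genes of the GDNF family, its receptors and related molecules, with *Gdf15* and *Ncam1* among the last. In WT 3 rose and 1 fell (1 and 1 after the length correction, against 26.0% and 33.8% of all genes before it). In sh*Pax6* 1 rose and 2 fell, and in JNK3 KO 1 rose and 1 fell. *Gdf15*, a stress-induced ligand, rose in all 3 backgrounds, from 0.35 and 0.49 FPKM to 1.95 and 2.34 in WT (2.12, adjusted p = 0.0129), from 0.95 and 1.41 to 7.74 and 6.17 in sh*Pax6* (2.48, adjusted p = 0.0131), and from 0.33 and 0 to 1.94 and 2.84 in JNK3 KO (3.56, adjusted p = 0.00704). Its WT value after the length correction was 1.57 (adjusted p = 0.0565). *Nrtn*, the ligand neurturin, rose in WT, from 5.52 and 1.69 to 23.3 and 14.1 (2.52, adjusted p = 0.0017, and 1.72, adjusted p = 0.018, after the correction), and its receptor *Gfra2* fell in sh*Pax6*, from 4.76 and 5.17 to 2.36 in both libraries (-1.04, adjusted p = 0.00189). *Ncam1*, an adhesion molecule that also binds GDNF with GFRα1, fell in WT (-1.04, adjusted p = 1.65e-06, and -0.18, adjusted p = 0.0403, after the length correction).

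Of 6 other FGF genes tested, none rose and 3 fell in WT (0 and 2 after the length correction), 2 rose and 2 fell in sh*Pax6*, and none was called in JNK3 KO. Over all genes 26.0% rose and 33.8% fell in WT, or 27.3% and 20.1% after the correction. *Fgf1*, another FGF ligand, was called lower in the same 3 comparisons as *Ret*. It measured 13.4 and 12.6 FPKM in WT PBS, 5.32 and 5.30 in WT NMDA, 3.33 and 3.26 in sh*Pax6* with PBS and 1.64 and 1.78 in sh*Pax6* with NMDA. Its differences were -1.28 (adjusted p = 3.89e-05) in WT (-0.52, adjusted p = 0.0137, after the length correction), -0.91 (adjusted p = 0.00116) in sh*Pax6* and -1.95 (adjusted p = 4.16e-05) between the PBS groups. The receptors *Fgfr1* (1.25, adjusted p = 0.000478) and *Fgfr2* (2.37, adjusted p = 0.0154) rose in sh*Pax6*, the background in which *Fgf2* was highest, and both fell in WT (-0.49 and -1.85, adjusted p = 0.0255 and 0.0232). After the length correction *Fgfr1* in WT was 0.14 (adjusted p = 0.488) and *Fgfr2* -2.18 (adjusted p = 0.0154). *Fgfbp3*, a carrier that releases FGFs from heparan sulfate, fell in sh*Pax6* (-1.49, adjusted p = 0.00114).

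Of 18 receptor adaptors, which link Trk, RET and FGF receptors to their pathways, 0 rose and 11 fell in WT, 2 rose and 2 fell in sh*Pax6* and 0 rose and 1 fell in JNK3 KO. With the length correction the WT count was 2 higher and 4 lower. Over all genes 26.0% rose and 33.8% fell in WT, or 27.3% and 20.1% after the correction. *Dok6*, an adaptor of RET, fell in WT (-2.84, adjusted p = 0.000119, and -1.11, adjusted p = 0.0282, after the correction) and in sh*Pax6* (-1.60, adjusted p = 0.00979). *Shc3* fell in WT (-2.83, adjusted p = 0.00272), as did *Shc4* (-1.93, adjusted p = 0.0256) and *Irs1* (-1.84, adjusted p = 0.000381), and of these *Shc3* kept its call after the correction (-3.22, adjusted p = 0.0021).

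Of 14 feedback genes of the ERK pathway, 2 rose and 8 fell in WT, 4 rose and 2 fell in sh*Pax6*, and 3 rose and 0 fell in JNK3 KO. *Dusp4*, a phosphatase that removes the activating phosphates from ERK, fell from 12.2 and 13.8 FPKM to 1.53 and 2.01 in WT (-2.82, adjusted p = 5.43e-07), which was kept after the length correction (-2.46, adjusted p = 3.43e-06). It also fell in sh*Pax6*, from 8.50 and 8.49 to 5.47 and 6.11 (-0.55, adjusted p = 0.0242). *Spred1*, a membrane inhibitor of RAS signalling, fell in WT (-1.42, adjusted p = 5.18e-06) and rose in JNK3 KO (0.47, adjusted p = 0.0292), but its WT value after the correction was -0.15 (adjusted p = 0.268). *Spred2* (-1.64, adjusted p = 0.0191) and the transcription factor *Etv1* (-1.58, adjusted p = 0.00698) fell in WT and lost their calls after the correction (-0.83 and -0.89, adjusted p = 0.210 and 0.0907). With the correction 3 of 13 tested rose and 1 fell in WT, where 27.3% and 20.1% of all genes did, against 26.0% and 33.8% before it.

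Of 9 proteases that cut neurotrophin precursors or shed their receptors, 0 rose and 4 fell in WT, 3 rose and 3 fell in sh*Pax6*, 0 rose and 2 fell in JNK3 KO, and 3 were lower in sh*Pax6* PBS than in WT PBS. *Pcsk1*, a prohormone convertase of neurons, fell in WT (-2.73, adjusted p = 3.23e-05, and -1.65, adjusted p = 0.00138, after the correction) and sh*Pax6* (-2.39, adjusted p = 0.000306), and *Pcsk6* fell in sh*Pax6* (-1.21, adjusted p = 0.0481). *Mmp9*, a secreted gelatinase also carried by neutrophils, fell in JNK3 KO, from 14.8 and 14.4 to 4.18 and 3.90 FPKM (-1.83, adjusted p = 0.00179). The 7 neutrophil markers summed to 150 to 162 FPKM in JNK3 KO with PBS and 12.7 to 13.6 in JNK3 KO with NMDA, with 3 of them at 0 in the latter, and their part in *Mmp9* was not tested. *Adam10*, a sheddase, fell in WT (-1.77, adjusted p = 7.22e-07, and -0.86, adjusted p = 0.000127, after the correction). The proteases' WT count after the correction was 5 higher and 2 lower. Over all genes 27.3% were then higher and 20.1% lower, against 26.0% and 33.8% before it.

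Of 15 other secreted trophic factors, 4 rose and 5 fell in WT (5 and 3 after the length correction), 3 rose and 0 fell in sh*Pax6* and 0 rose and 1 fell in JNK3 KO. Over all genes 26.0% rose and 33.8% fell in WT, or 27.3% and 20.1% after the correction. *Manf*, a factor released by cells under endoplasmic reticulum stress, rose in WT, from 66.1 and 70.7 to 185 and 193 FPKM (1.47, adjusted p = 2.44e-07), and in sh*Pax6*, from 65.8 and 71.9 to 123 and 121 (0.83, adjusted p = 3.36e-05). *Mdk* (midkine) rose in the same backgrounds (1.93 and 1.84, adjusted p = 0.00182 and 0.00625). *Nenf* (neudesin) rose in WT (2.01, adjusted p = 1.78e-06) and *Hgf*, the hepatocyte growth factor, fell there (-3.50, adjusted p = 0.00112). All of these WT calls were kept after the length correction (*Manf* 0.63, *Mdk* 1.10, *Nenf* 1.19, *Hgf* -3.22). *Manf* measured 88.1 and 80.9 in JNK3 KO with PBS and 91.2 and 96.9 in JNK3 KO with NMDA (0.16, adjusted p = 0.206).

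Patterns across the 12 libraries were compared for the 8 genes tested. The highest Pearson correlation between members was that of *Ret* and *Gfra1* (r = 0.89), followed by *Ntrk2* and *Ngfr* (0.82) and *Bdnf* and *Ret* (0.80), and *Bdnf* and *Ntf3* had r = -0.79. These are descriptions over libraries that share groups and the length trend of WT NMDA. Among 13880 protein-coding genes, the pattern most like that of *Ret* was that of *Nlgn3* and *Gnal* (r = 0.989 each) and that most like *Gfra1* was that of *Iffo2* (0.977) and *Mb21d2* (0.976). *Fgf2* was followed most closely by *Cacna2d4* and *Lrit1* (0.983 each), *Bdnf* by *Grap2* (0.980) and *Amigo1* (0.967), and *Ntrk3* by *Rabgap1* (0.960) and *Sik3* (0.957). The patterns nearest to *Ntrk2* were those of *Wdr1* (0.955) and *Slc20a2* (0.928), to *Ngfr* those of *Samd5* (0.925) and *Samsn1* (0.918), and to *Ntf3* those of *P3h4* (0.942) and *Ifi27* (0.941).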

How the data were processed

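RNA of 12 whole-retina samples was sequenced, and the deposited values are FPKM per gene and per transcript. Per the submitters' processing notes and the study's methods, the authors aligned reads to GRCm38.p6 with STAR 2.7.1a, estimated FPKM with RSEM 1.3.3 and tested with edgeR 3.36.0 in R 4.1.0. Whether counting used strand is not given in the sources used here. Since the deposited values are FPKM and not counts, library depth is unknown, no counting interval is given and no count test was run.

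Groups were taken from the sample labels. Values were tested as log2(FPKM + 0.1) with limma 3.58.1 (R 4.3.3; empirical Bayes with an intensity trend) in 1 model of the 6 group means with 6 residual degrees of freedom, over the 16471 genes with a group mean above 1 FPKM, and p-values were adjusted by the Benjamini-Hochberg method. Transcripts (49940) were tested in the same way. The length correction removed from each library a lowess trend (span 0.3) on FPKM-weighted spliced length, from GENCODE M21 exons. The procedure was tested on simulated data. All 9 members were named. Of each pathway list, up to 4 genes were named, those with the largest absolute log2 difference among calls with an absolute difference above 1 after NMDA, and the 2 protein-coding genes nearest to each member by Pearson r. The members and lists were chosen with earlier results of these data known. Same-numbered libraries did not deviate together (r from -0.10 to 0.09 over 15 pairs of groups), so the replicate number was left out of the model. Alternatives covered the pseudocount, filter, scaling, length, spread, replicate block, thresholds and each library left out; sums over protein-coding transcripts alone and a model without the WT NMDA libraries were added after the data were seen.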

Additional observations from a re-analysis of the deposited data

Results flagged for a closer look

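Of the NMDA responses compared between backgrounds, 6 differed by the test of the difference itself (limma, Benjamini-Hochberg adjusted p over all genes). *Fgf2* differed between WT and JNK3 KO by -1.30 on the log2 scale (SE 0.12, adjusted p = 3.01e-05) and between WT and sh*Pax6* by -1.20 (SE 0.12, adjusted p = 7.4e-05), with the NMDA libraries lower than PBS in WT and higher in both other backgrounds. *Ret* differed between WT and JNK3 KO by -1.20 (SE 0.25, adjusted p = 0.00328), *Ngfr* by -0.65 (SE 0.16, adjusted p = 0.00724) and *Gfra1* by -0.69 (SE 0.24, adjusted p = 0.0368). After the length correction these 5 values were 0.08, -0.04, -0.02, 0.01 and 0.22. *Gfra1* also differed between sh*Pax6* and JNK3 KO by -1.12 (SE 0.24, adjusted p = 0.0132), a comparison that does not use the WT libraries.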

How the results depend on the processing

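Of the alternatives to the 22 called results, 333 kept the direction and the call, 70 kept the direction and lost the call and 5 reversed. The fall of *Ret* in WT and its lower level in sh*Pax6* PBS kept their calls throughout. The number of genes called after NMDA in JNK3 KO (2) was 1 with no intensity trend, 0 with the spread of the compared groups alone and 0 under an unadjusted p under 0.05 with an absolute log2 difference above 1 (thresholds of the study without its limit on variance-mean ratios). In sh*Pax6* (3) it was 0 with that spread, 1 under those thresholds and 5 over protein-coding transcripts alone, and for sh*Pax6* PBS against WT PBS (5) it was 2 and 1 under the first pair. For WT less JNK3 KO (4) it was 7 with TPM, 7 with that spread and 1 (*Ntrk2*) after the length correction. For WT less sh*Pax6* (1) it was 6 with TPM and 2 with the length correction, with a pseudocount of 1 or with quantile normalization, and for sh*Pax6* less JNK3 KO (1) it was 2 with 75th-percentile scaling or quantile normalization. With 1 library left out, the lone library of its group being assumed to vary like the others, the counts ran from 4 to 5 in WT, 2 to 5 in sh*Pax6*, 0 to 1 in JNK3 KO, 3 to 5 between sh*Pax6* PBS and WT PBS, 1 to 3 for WT less sh*Pax6*, 3 to 4 for WT less JNK3 KO and 0 to 2 for sh*Pax6* less JNK3 KO.

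Directions reversed mostly with the length correction: in WT *Fgf2* became 0.35, *Gfra1* 0.33 and *Ngfr* 0.58; for WT less JNK3 KO *Fgf2* became 0.08, *Gfra1* 0.22, *Ngfr* 0.01, *Ntrk2* 0.88 and *Ntrk3* 0.39; for WT less sh*Pax6* *Ngfr* became 0.32, *Ntf3* -0.01, *Ntrk2* 0.84, *Ntrk3* 0.31 and *Ret* 0.60. With TPM, which moved the median of all genes in WT from -0.09 to -0.66, *Ntrk2* in WT became -0.36, and *Gfra1* and *Ntf3* for WT less sh*Pax6* became -0.08 and -0.20. With quantile normalization *Ngfr* in WT became 0.09, and *Ntrk2* and *Ret* for WT less sh*Pax6* became 0.03 and 0.05. Over protein-coding transcripts alone *Ntrk3* became 0.03 in JNK3 KO and -0.75 between sh*Pax6* PBS and WT PBS. With 1 library left out, *Ntf3* ran from -0.18 to 0.37 in JNK3 KO, from -0.48 to 0.97 for WT less sh*Pax6* and from -0.23 to 1.07 between sh*Pax6* PBS and WT PBS, *Ntrk2* for WT less sh*Pax6* from -0.31 to 0.05, and *Ntrk3* between sh*Pax6* PBS and WT PBS from -0.37 to 0.62. The cause was not tested. With the replicate block 5 genes were called in WT, *Ntf3* losing its call (adjusted p = 0.0637), and the other counts did not change. Groups of 2 libraries and unknown depth limit all values, those of *Gdnf* and *Ntf3* most.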
